A study of Mus musculus with 7 samples.

Results

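The aldehyde dehydrogenases described here are 10 genes, Aldh1a1, Aldh1a2, Aldh1a3, Aldh1a7, Aldh2, Aldh3a1, Aldh3a2, Aldh3b1, Aldh7a1 and Aldh9a1, selected by symbol from the 24015 genes of a table of read counts. The counts come from bulk RNA sequencing of haematopoietic stem cells (HSCs) of C57BL/6 mice. They were sorted out of bone marrow as LSK CD150+ CD48- cells, where LSK stands for cells without lineage markers that carry Sca-1 and c-Kit. There were 3 libraries of old and 4 of young HSCs, with no treatment and no engineered allele named for either group. The labels give neither the ages nor the number of mice behind a library, so the p-values rest on the spread between libraries, which may be technical. All 10 members were found in the table, and 9 had at least 1 count.

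Aldehyde dehydrogenases oxidise reactive aldehydes to carboxylic acids, with NAD or NADP as the electron acceptor and a conserved cysteine as the catalytic residue. Aldh1a1, Aldh1a2 and Aldh1a3 turn retinaldehyde into retinoic acid, the ligand of nuclear receptors that control differentiation. Others clear acetaldehyde, fatty aldehydes and the aldehydes of lipid peroxidation. In blood, high aldehyde dehydrogenase activity is a classical property by which stem and progenitor cells are isolated, and loss of Aldh2 together with Fanconi anaemia genes is known to damage mouse HSCs.

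The stretch of coding sequence around the catalytic cysteine shows how the members relate. The cysteine was located by the family's PROSITE-type active-site pattern, searched in the reading frame. The pattern was found once in 9 of the 10 members and in 0.151% of 21845 protein-coding genes. Shown 5′ to 3′ from GENCODE M21 transcripts (GRCm38) are 5 members with counts in every old library, with the cysteine codon in capitals.
Aldh1a1: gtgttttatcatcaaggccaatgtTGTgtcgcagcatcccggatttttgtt
Aldh2: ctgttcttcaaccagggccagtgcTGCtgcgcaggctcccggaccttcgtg
Aldh3a1: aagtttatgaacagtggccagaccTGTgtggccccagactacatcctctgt
Aldh3a2: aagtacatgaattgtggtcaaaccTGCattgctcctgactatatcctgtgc
Aldh9a1: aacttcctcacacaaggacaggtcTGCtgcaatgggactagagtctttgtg
The codon begins at coding base 907 in Aldh1a1, 961 in Aldh2, 730 in Aldh3a1, 721 in Aldh3a2 and 934 in Aldh9a1. Over whole coding sequences, the 45 pairs of members were 56.4% to 91.6% identical in their aligned bases.

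One pair exceeded 90% identity, Aldh1a1 and Aldh1a7, which are neighbours in the genome and differ at 126 of 1506 coding bases. Whether reads of the pair can be told apart bears on every Aldh1a1 value. The same stretch of both genes is shown here over 75 bases, with the 16 differing bases in capitals.
Aldh1a1: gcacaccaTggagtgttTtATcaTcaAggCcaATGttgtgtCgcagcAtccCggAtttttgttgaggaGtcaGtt
Aldh1a7: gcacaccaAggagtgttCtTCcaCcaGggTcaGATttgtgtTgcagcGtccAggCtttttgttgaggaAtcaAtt
Of the 50-base windows in the Aldh1a1 coding sequence, 10.4% also occur in Aldh1a7, and the rest occur in no transcript of another gene. The neighbours Aldh3a1 and Aldh3a2, whose products are a soluble enzyme for aromatic aldehydes and a membrane-bound one for fatty aldehydes, were 67.8% identical, with 20 differing bases in the same stretch.
Aldh3a1: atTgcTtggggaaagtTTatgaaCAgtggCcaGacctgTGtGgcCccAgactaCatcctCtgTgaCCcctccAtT
Aldh3a2: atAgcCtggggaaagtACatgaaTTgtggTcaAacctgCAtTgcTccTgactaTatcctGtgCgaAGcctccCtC
No 50-base window of either coding sequence occurs in another gene. For Aldh3b1, 13.2% of the windows also occur in Aldh3b2 or Aldh3b3.

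The libraries held 22203806 to 32401925 counts and a count for 10576 to 12073 genes. A count of 0 in a library allows a level of up to 0.0929 to 0.137 CPM (the count relative to the TMM-scaled library size), the worth of 3 counts. This limit covers counting error only. All 12 HSC markers examined, among them Kit, Ly6a, Slamf1 and Procr, had counts. Their summed level was 3106 to 3200 CPM in old and 1807 to 2881 CPM in young HSCs. Of the 12, 4 did not overlap between the groups, all higher in old, and 1, Procr, passed the test described below. Over all tested genes, 7.55% did not overlap and were higher in old, and 0.252% passed. Cd48, whose protein the sort selected against, had no count in old HSCs and 6.88, 1.87, 24.5 and 16.6 CPM in young 1 to young 4 (adjusted p = 0.159, edgeR). It had enough counts to be tested through the young group alone. Several defining markers of other cells were at 0 in all 7 libraries. These were Lepr of stromal cells, Pax5, Ebf1 and Ms4a1 of B cells, and Cd3e, Cd8a and Ncr1 of T and NK cells. Csf1r, Emr1, Itgax, Cd209a and Siglech of macrophages and dendritic cells were also at 0, as were Mcpt8, Prss34, Mcpt4 and Tpsb2 of basophils and mast cells, Ltf of granulocytes and the globins Hba-a1 and Hbb-b1. The summed T and NK markers, 4 of 7 with a count, spanned 109 to 238 CPM in old and 0 to 14.1 CPM in young HSCs, nearly all of it Klrb1c in the old libraries. Granulocyte and monocyte markers, 7 of 8 with a count, spanned 1424 to 2195 and 858 to 1432 CPM, with Lyz2 and Prtn3 as the main part. Prtn3, a granule protease, averaged 645 ± 116 CPM in the old libraries against 151 ± 43.8 CPM in the young, without overlap. It passed the same test (adjusted p = 0.0242, edgeR). Lyz2, Elane and S100a9 also had higher means in old HSCs. Mpo, Itgam and S100a8 went the other way. Their means were 0, 0.0126 and 0.237 CPM in old and 8.12, 3.86 and 1.31 CPM in young HSCs. Erythroid markers, 6 of 8 with a count, spanned 23.5 to 83.4 and 96.3 to 138 CPM, and macrophage and dendritic cell markers, 4 of 9 with a count, 0 to 5.48 and 10.9 to 48.5 CPM. Megakaryocyte (6 of 6), B cell (3 of 6) and endothelial (7 of 7) marker sums overlapped between the groups, the highest being 576, 192 and 159 CPM. Eosinophil, basophil and mast cell markers (4 of 8) spanned 15.02 to 38.9 and 5.01 to 23.2 CPM, and stromal markers (6 of 7) reached at most 8.69 CPM. The part of these cells in the results below was not tested. In bulk libraries, more cells that express a gene and more RNA per cell cannot be told apart.

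Aldh3a1 had counts in all old libraries and in no young library. Aldh1a1 was higher in every old library than in any young one. Aldh2, Aldh3a2, Aldh7a1 and Aldh9a1 were present in all 7 libraries with overlapping levels, Aldh3b1 was present in 1 old library alone, and Aldh1a2, Aldh1a3 and Aldh1a7 had from 0 to 38 counts over all libraries. The question put by the design is what age changes in HSC transcription. The groups were compared with edgeR's quasi-likelihood F test over the 11506 genes with enough counts, with Benjamini-Hochberg adjustment over all of them. Of the members, 6 had enough counts to be tested. None passed an adjusted p of 0.05, where 0.252% of all tested genes did. At an unadjusted p under 0.05 there were 2 members, Aldh1a1 and Aldh3a1, both higher in old, against 4.62% of all tested genes higher. The same 2 had libraries that did not overlap between the groups, higher in old, as 7.55% of tested genes had, and no member lay wholly lower, as 5.18% did. Aldh3a1 passed the filter on low counts through the old group alone, so it could be tested only because it was high there.

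**Figure D1:**
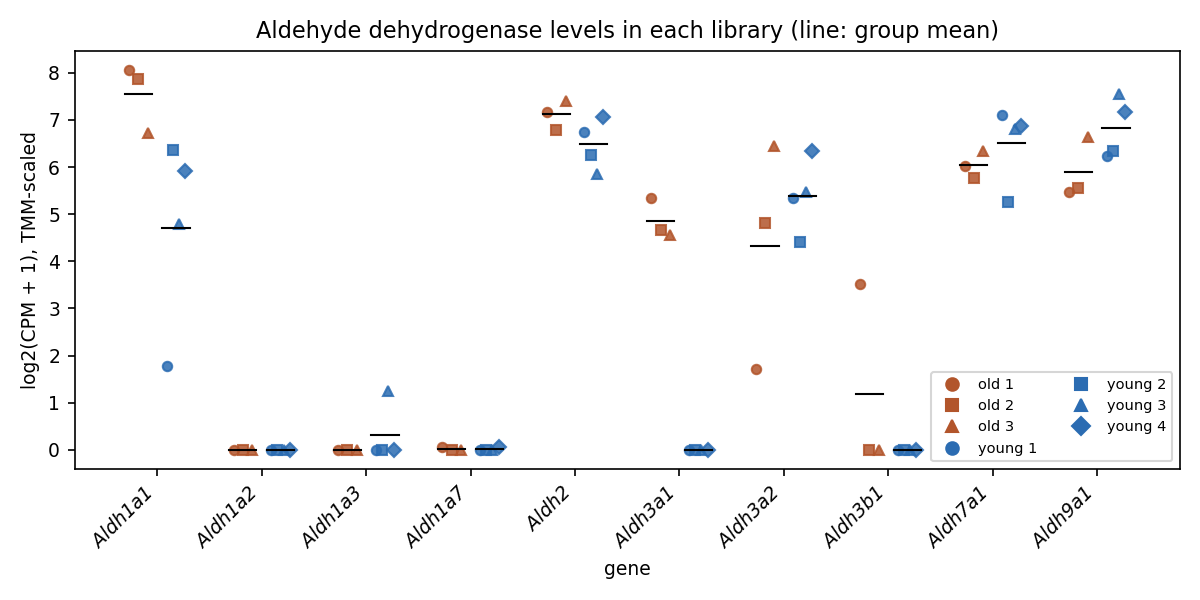
Level of each of the 10 members in each library as log2(CPM + 1), with a symbol per library, old in orange and young in blue, and a line at the mean of the log values. Aldh3a1 is present in the 3 old libraries and at 0 in the 4 young ones, and the Aldh1a1 points of old HSCs lie above those of young HSCs.

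Aldh3a1 encodes an enzyme for aromatic and medium-chain aldehydes that is best known as an abundant protein of the cornea. Its counts were 1041, 783 and 584 in old 1, old 2 and old 3, and 0 in each of the 4 young libraries. Scaled, these were 39.3, 24.2 and 22.4 CPM, a mean of 28.7 ± 9.27 CPM (SD, n = 3). The old libraries thus differed by less than 2-fold among themselves, while the young ones held no count among 98246090. Set against 3 counts per library in young HSCs (0.120 CPM), the old mean was 238-fold higher, a fold that allows for counting error only. The fitted log2 fold change was 12.57 ± 1.72 (SE), a value that depends on the prior count because young HSCs had none. The adjusted p was 0.0760 by edgeR.

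The Aldh3a1 difference lay near the threshold, and its call turned on the method. It passed by DESeq2 (adjusted p = 9.96e-14), which called 2.45% of its genes higher. It also passed by limma-voom (adjusted p = 0.0217), which called 0.426% higher, and by edgeR without the filter on low counts (adjusted p = 0.0466), which called 0.258% higher. Without any 1 library the edgeR adjusted p was 0.0674 to 0.341, so no such fit called it. Genes with a pattern like that of Aldh3a1 were counted with its values in view, so the count lends its difference no support. Of 14732 genes with a count, 5 (0.0339%) were at 0 counts in all young libraries and at 10 CPM or more in all old ones, and 1 gene, Cd86, had the reverse pattern. The 5 were Aldh3a1, Gipc2, Tmem215, the neurotrophin Ntf3 and the lectin Zg16, named here after their values were seen. Zg16 had 32.7 to 57.4 CPM in old HSCs, and Ntf3 had 11.8 to 26.2 CPM. Being picked for this pattern fixes their difference between the groups, so no test of theirs is given.

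**Figure D2:**
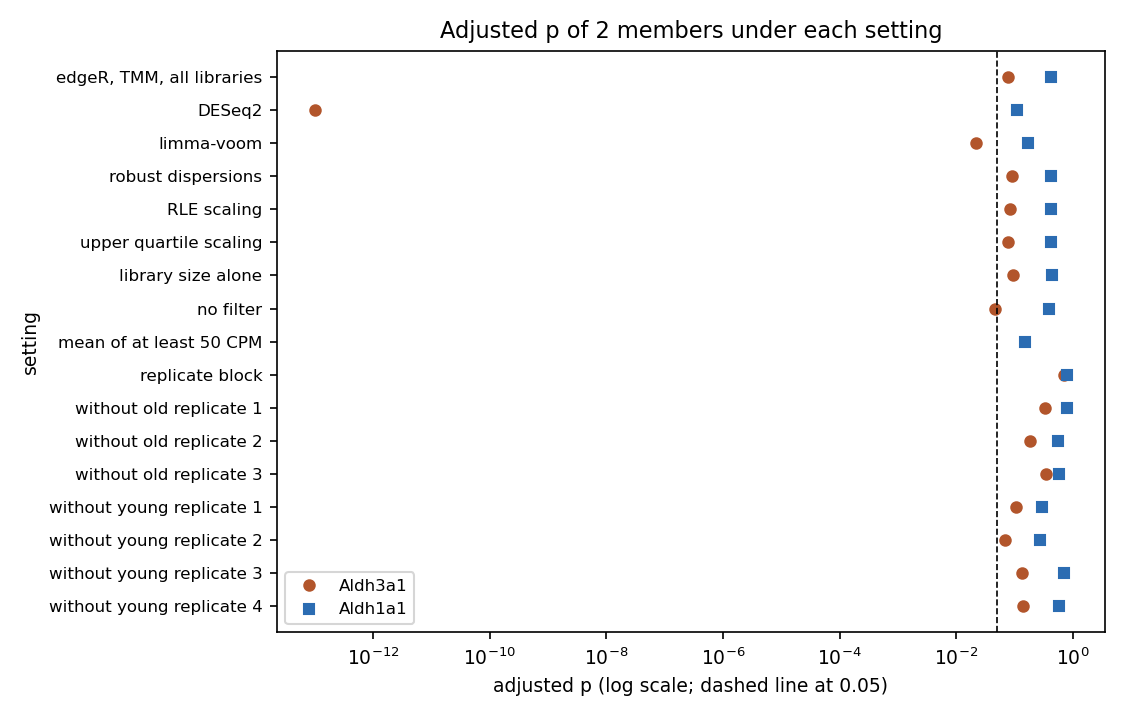
Adjusted p (x axis, log scale) of Aldh3a1 (circles) and Aldh1a1 (squares) under each setting of the test (y axis), with a dashed line at 0.05. Aldh3a1 lies left of the line with DESeq2, limma-voom and no filter, and has no point where genes under a mean of 50 CPM were left out. Aldh1a1 lies right of it under each setting shown.

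Aldh1a1 makes retinoic acid from retinaldehyde and is the enzyme most often linked to the aldehyde dehydrogenase activity of blood stem cells. Old 1, old 2 and old 3 held 267, 232 and 104 CPM. Young 1, young 2, young 3 and young 4 held 2.41, 81.5, 26.6 and 59.7 CPM. The groups did not overlap, although the lowest old library and the highest young one were close. Young libraries ranged over 33.8-fold and old ones over 2.57-fold. The means were 201 ± 85.8 CPM in old (SD, n = 3) and 42.5 ± 34.99 CPM in young HSCs (SD, n = 4), 4.72-fold higher in old. Its log2 fold change was 2.24 ± 0.85 (SE), with an unadjusted p of 0.0270 and an adjusted p of 0.417 by edgeR. It passed under none of the settings tried. The ratio of the means was 3.59-fold without young 1 and 6.80-fold without young 2.

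The close copy Aldh1a7 had 2 counts in all, 1 in old 1 and 1 in young 4, against 21554 counts of Aldh1a1. With so few counts, summing the rows of both genes could not move the value (log2 fold change 2.24), and it says nothing of how reads shared by the pair were assigned. Of the other retinaldehyde dehydrogenases, Aldh1a2, known from the embryonic mesoderm, had no count in any of the 7 libraries, which allows up to 0.137 CPM in a library. Aldh1a3, known from epithelia and the eye, had 38 counts in young 3 (1.37 CPM) and none elsewhere. Among the 4 Aldh1a genes, Aldh1a1 therefore held nearly all counts in old and young HSCs alike.

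Aldh2 encodes the mitochondrial enzyme that oxidises acetaldehyde. It had 143, 109 and 169 CPM in old 1 to old 3, and 106, 75.0, 56.9 and 134 CPM in young 1 to young 4. Young 1 and young 4 lay near or within the old range. The means were 140 ± 29.6 and 92.8 ± 33.8 CPM (log2 fold change 0.59 ± 0.34, adjusted p = 0.703, edgeR). This was among the evenly expressed members, with a range of 2.35-fold over the young libraries.

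Aldh3a2, the fatty aldehyde dehydrogenase of the endoplasmic reticulum, had another pattern than its neighbour Aldh3a1. Old 1, old 2 and old 3 held 2.27, 27.1 and 86.6 CPM, and young libraries 39.6, 20.4, 43.4 and 80.1 CPM. The old libraries spanned the whole young range, from below its lowest to above its highest value. The log2 fold change was -0.25 ± 0.96 (adjusted p = 0.986, edgeR). It was -1.64 without old 3, 0.31 without old 1 and 0.17 without young 4, so its sign rested on single libraries. Old 1 had the lowest Aldh3a2 and the highest Aldh3a1 level of the old libraries.

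Aldh3b1, which acts on lipid-derived aldehydes at membranes, had 278 counts in old 1 (10.5 CPM) and 0 in the 6 other libraries. With a single library positive, it was left out by the filter, and no fold is given. Old 1 was also the library with counts for the most members, 8 of 10, against 5 to 6 in the others.

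Aldh7a1 and Aldh9a1 serve amino acid and carnitine metabolism. Aldh7a1 (antiquitin) oxidises an intermediate of lysine breakdown. It had 63.6, 53.1 and 79.8 CPM in old 1 to old 3, and 137, 37.4, 111 and 116 CPM in young 1 to young 4. Young 2 lay below all old libraries and the other 3 young libraries above them. The log2 fold change was -0.61 ± 0.44 (adjusted p = 0.831, edgeR).

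Aldh9a1 forms butyrobetaine, from which carnitine is made, and also oxidises aminoaldehydes. Old 1 to old 3 had 43.0, 46.1 and 98.6 CPM, and young 1 to young 4 had 74.3, 79.6, 186 and 143 CPM. Old 3 lay within the young range and the other old libraries below it. The means were 62.6 ± 31.2 and 121 ± 53.5 CPM, 1.93-fold higher in young (log2 fold change -0.95 ± 0.45, unadjusted p = 0.0658, adjusted p = 0.601, edgeR). Without old 3 the old mean was 0.369 of the young mean.

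**Figure D3:**
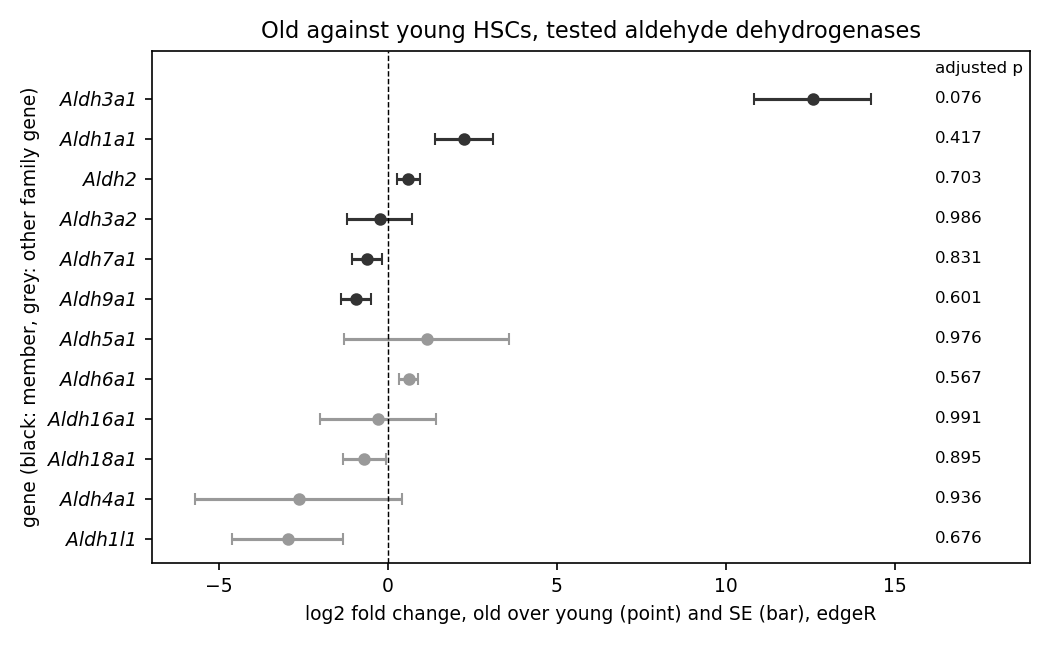
Log2 fold change of old over young HSCs (point) with its SE (bar) from edgeR for the 6 tested members (black) and the 6 other tested aldehyde dehydrogenases (grey), with the adjusted p at the right. Adjusted p ranged from 0.0760 for Aldh3a1 to 0.991 for Aldh16a1.

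The family counts were also described by their make-up in each library, with no test. Summed over the 10 members, old libraries held 492 to 568 CPM and young ones 294 to 532 CPM. Shares of the summed counts need no scaling between libraries. Aldh1a1 took 47.0%, 47.2% and 18.6% in old 1 to old 3, and 0.671%, 27.7%, 6.25% and 11.2% in young 1 to young 4, so old 3 lay below young 2. Aldh9a1 took 7.57% to 17.6% in old and 20.7% to 43.7% in young HSCs, with no overlap. Without the Aldh1a1 counts, Aldh9a1 took 14.3% to 21.6% in old and 20.8% to 46.6% in young HSCs. The groups then overlapped through old 3 and young 1. The mean shares of Aldh9a1 were 11.5% in old and 29.6% in young HSCs with the Aldh1a1 counts, and 17.9% and 33.8% without them. Aldh3a1 took 4.01% to 6.92% in old HSCs. Aldh2 took 22.2% to 30.1% and 13.4% to 29.5%, and Aldh7a1 10.8% to 14.3% and 12.7% to 38.1%.

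**Figure D4:**
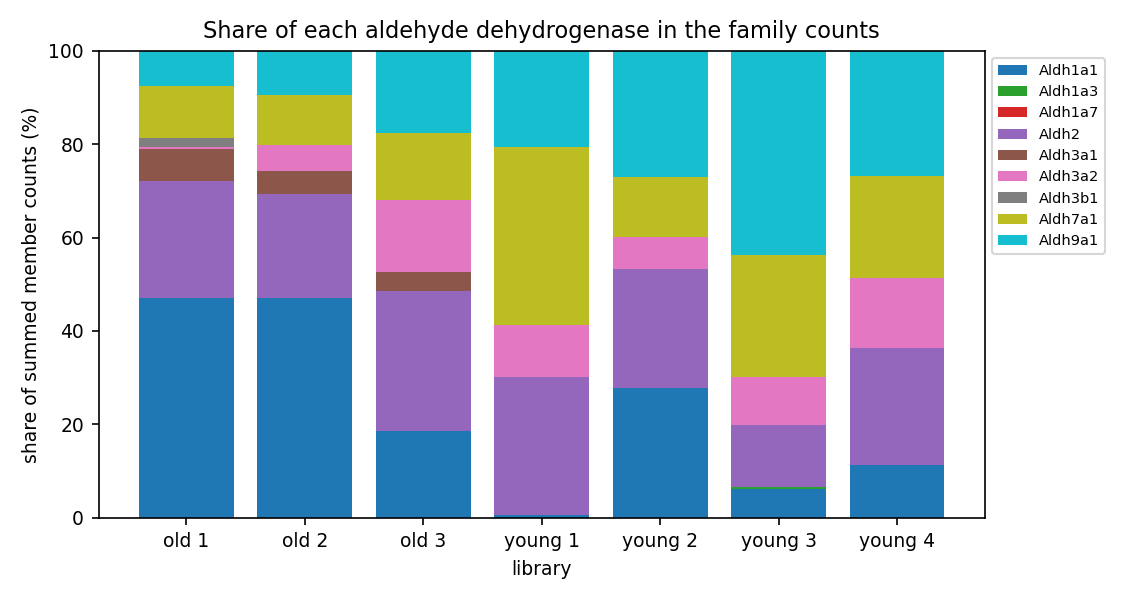
Share of each member (% of the summed counts of the 10 members, y axis) in each library (x axis). Aldh1a1 takes 18.6% to 47.2% in the old libraries, and Aldh9a1 takes 20.7% to 43.7% in the young ones.

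Levels of different genes were compared per kilobase of annotated exon (GENCODE M21), in CPM per kb. In old HSCs the order was Aldh1a1 (40.7 ± 17.4), Aldh2 (27.3 ± 5.78), Aldh9a1 (18.5 ± 9.23), Aldh3a1 (14.8 ± 4.77), Aldh7a1 (12.6 ± 2.60) and Aldh3a2 (6.88 ± 7.72, SD, n = 3). In young HSCs it was Aldh9a1 (35.7 ± 15.8), Aldh7a1 (19.4 ± 8.38), Aldh2 (18.1 ± 6.60), Aldh1a1 (8.62 ± 7.09) and Aldh3a2 (8.16 ± 4.44, SD, n = 4). Each neighbour in these orders overlapped the next in its range over libraries, so no step between them exceeded the spread. Aldh1a1 held the fourth place in young and the top place in old HSCs. Its level depended on the length used, since its exons sum to 4937 bases but its longest transcript to 2358 bases. With the longest transcript of each gene it had 85.2 CPM per kb in old HSCs, and its range there lay above that of Aldh2 (36.2).

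None of the other aldehyde dehydrogenases passed. Of 11 further family genes, 10 were in the table, 8 had a count and 6 were tested, none with an unadjusted p under 0.05 (edgeR). By DESeq2 none passed either. Their median log2 fold change was -0.50, beside -0.03 over all tested genes, and 2 of 6 were positive. Aldh6a1, which breaks down valine and pyrimidine products, averaged 141 ± 31.7 CPM in the old libraries against 91.9 ± 17.3 CPM in the young (adjusted p = 0.567, edgeR). Aldh18a1, the first enzyme of proline synthesis, averaged 53.2 ± 43.1 and 87.0 ± 53.6 CPM (adjusted p = 0.895). Aldh1l1, the cytosolic enzyme that oxidises formyl-tetrahydrofolate, had 2.002, 0.0310 and 2.77 CPM in old 1 to old 3 and 4.52 to 20.3 CPM in young HSCs. It was the 1 gene of these 6 that lay wholly lower in old, beside 5.18% of all tested genes. Its log2 fold change was -2.98 ± 1.63 (adjusted p = 0.676, edgeR).

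Genes around retinoic acid, the product of Aldh1a1, also gave no call by edgeR. Of 26 genes for retinoid handling and retinoic acid receptors, 18 had a count and 16 were tested. None passed, and 1 (Rarb, higher) had an unadjusted p under 0.05 (edgeR), beside 4.62% of all tested genes higher. A positive log2 fold change was found for 11, and the median was 0.75 beside -0.03 over all tested genes. Of the 16, 2 lay wholly higher in old and 1 wholly lower, beside 7.55% and 5.18% of all tested genes. The lower gene was Dhrs4, with 62.3 to 88.8 CPM in old and 89.6 to 118 CPM in young HSCs. Rarb, the retinoic acid receptor beta, which is itself a classical target gene of retinoic acid, had 52.9, 118 and 87.6 CPM in old 1 to old 3. In young 1 to young 4 it had 9.29, 18.9, 30.8 and 9.58 CPM. The groups did not overlap, and the old mean was 5.03-fold higher (log2 fold change 2.33 ± 0.58, unadjusted p = 0.00278, adjusted p = 0.181, edgeR). DESeq2 called it higher (adjusted p = 0.00440), and no other setting did. Rdh10, which oxidises retinol to the retinaldehyde that Aldh1a1 uses, averaged 85.7 ± 17.8 CPM in old HSCs and had 4.82, 0, 0 and 26.8 CPM in young 1 to young 4. Its groups did not overlap, although young 4 was well above the other young libraries (adjusted p = 0.648, edgeR). Rdh13, a mitochondrial retinol dehydrogenase, averaged 41.5 ± 8.40 and 86.6 ± 63.5 CPM (adjusted p = 0.637), with 180 CPM in young 1.

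Enzymes that clear aldehydes by other routes were examined next. Of 27 alcohol dehydrogenases and other aldehyde-clearing enzymes, 20 had a count and 18 were tested, 14 with a positive log2 fold change and a median of 0.21. None passed by edgeR, and 1 higher (Cbr1) and 1 lower gene (Cbr2) had an unadjusted p under 0.05. Of all tested genes, 4.62% were higher at that threshold, and the share that were lower was not counted. Of the 18, 3 lay wholly higher in old and 2 wholly lower, beside 7.55% and 5.18% of all tested genes. Cbr2, a carbonyl reductase, had no count in old HSCs and 6.13, 6.30, 2.60 and 3.76 CPM in young 1 to young 4. Set against 3 counts per old library (0.107 CPM), it was 43.9-fold lower in old HSCs (adjusted p = 0.191, edgeR). That fold allows for counting error only. DESeq2, which called 591 genes in either direction, called Cbr2 lower (adjusted p = 2.04e-04), and no other setting did. Cbr2 passed the filter on low counts through the young group alone, so it could be tested only because it was high there. Its relative Cbr1, which also reduces carbonyl compounds, averaged 163 ± 37.9 CPM in the old libraries against 83.4 ± 39.2 CPM in the young, with overlapping groups (adjusted p = 0.435). Ptgr1, which reduces unsaturated aldehydes, averaged 6.55 ± 0.586 and 27.1 ± 14.6 CPM (adjusted p = 0.554). Young 2, at 6.48 CPM, lay within the old range.

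Of 23 enzymes that make or use the members' substrates, 12 had a count, 7 were tested and none passed by edgeR or had an unadjusted p under 0.05. DESeq2 also called none. Their median log2 fold change was -0.03. Smox, the spermine oxidase, averaged 25.6 ± 7.72 and 38.3 ± 12.8 CPM (adjusted p = 0.915, edgeR). Sgpl1, the sphingosine phosphate lyase whose fatty aldehyde product Aldh3a2 oxidises, averaged 15.8 ± 17.2 and 49.2 ± 34.6 CPM (adjusted p = 0.932). Hacl1, which splits branched and hydroxy fatty acids to aldehydes, averaged 69.9 ± 10.2 and 60.2 ± 27.0 CPM (adjusted p = 0.976).

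**Figure D5:**
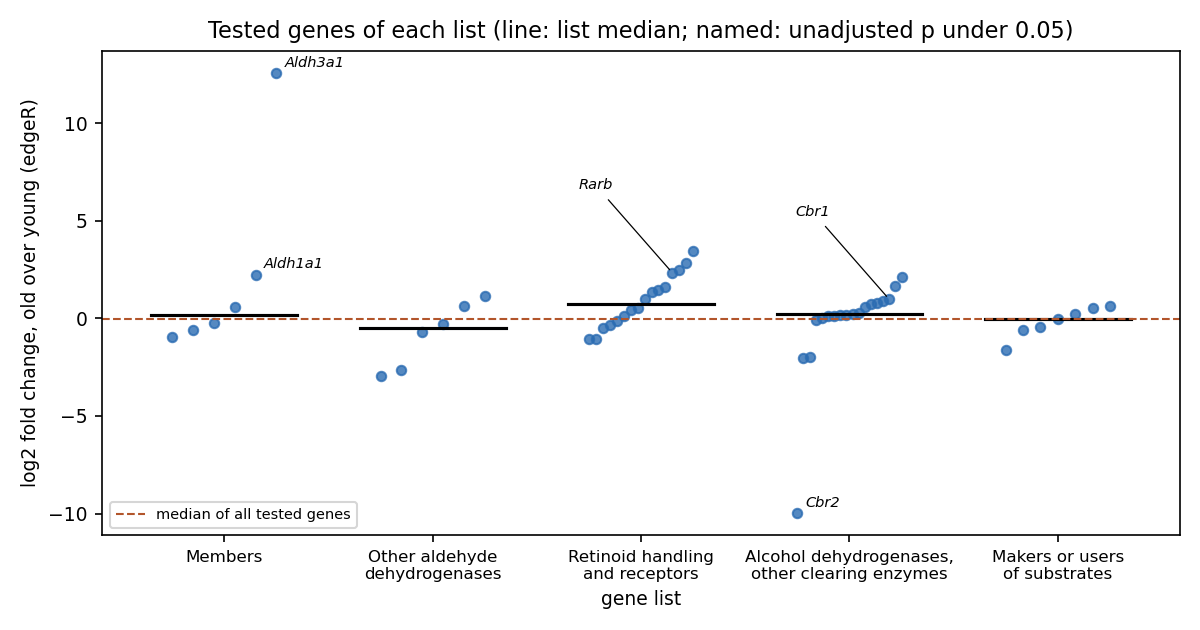
Log2 fold change of old over young HSCs (y axis) for the tested genes of each list (x axis), with a black line at the list median and a dashed line at the median of all tested genes. Genes with an unadjusted p under 0.05 are named. The highest point is Aldh3a1 and the lowest is Cbr2, which had no counts in young and in old HSCs, respectively.

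Genes with a pattern most like that of a member were found as those with the smallest root mean square difference of centred log2(CPM + 1) over the 7 libraries, which share depth and sorting between genes. For Aldh1a1 these were Rnf185, a ubiquitin ligase (0.455), Kcnip3, a calcium-binding channel partner (0.493), and Lpl, lipoprotein lipase (0.513). For Aldh3a1, added after its values were seen, they were Nupr1, a stress-induced nuclear protein (0.344), Ntf3 (0.462) and Sult1a1, a phenol sulfotransferase (0.479). Nupr1 spanned 608 to 853 CPM in the old libraries against 22.0 to 43.4 CPM in the young, whereas Aldh3a1 had no count in young HSCs. Nupr1 was picked for its likeness to Aldh3a1, so a difference between its groups was built in and no test is given. The pseudocount of 1 limits the difference that a gene at 0 can show, so this likeness depends on it.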

How the data were processed

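The deposited table held raw read counts per gene symbol for 7 libraries, whole numbers with no sign of scaling or pooling by the authors. Per the labels' protocols, cDNA was made by Smart-seq+ and libraries by Nextera XT. Trimmomatic, FastQC, STAR, featureCounts and the build mm9 are named, per the submitters' processing notes. The sources used here give no versions, annotation or strand setting. Counts without strand could mix overlapping genes: in GENCODE M21, 5.79% of Aldh7a1 exon bases overlap Phax, 3.40% of them a pseudogene, and 2.54% of Aldh2 exon bases overlap another annotated transcript. Because GRCm38 is not the build of the counts, no positions are given.

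The tools were R 4.3.3 and edgeR 4.0.16 (filterByExpr, minimum count 10, minimum total 15, TMM scaling, glmQLFit and glmQLFTest, 2-sided, group as the only term), DESeq2 1.42.0 and limma 3.58.1. Adjusted p-values cover all tested genes. For edgeR, SE was taken as the size of the log2 fold change over the root of F. The procedure was tested on simulated data. Members and lists were chosen with earlier results of these data known. Named genes are all 10 members and, from each of 4 lists, the 3 with the smallest p, since none passed. Any further gene, and the Aldh9a1 share without Aldh1a1, was picked with values in view. Coding sequences were the longest frames matching the annotated length, aligned with Biopython 1.88.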

Additional observations from a re-analysis of the deposited data

Results flagged for a closer look

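In groups of 4 young libraries, 22 genes were examined for a library far from the others. The rule is set so that chance sets apart about 5% of such groups. A single library with counts among others at 0 is always set apart, so that share does not apply to the genes below. Aldh1a3 was set apart in young 3, with 1.37 CPM against 0 in the other young libraries. Aldh1a7 was set apart in young 4, with 0.0348 CPM against 0, the worth of 1 count. Both genes were too low to be tested.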

How the results depend on the processing

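Over all genes edgeR called 29, and 591 with DESeq2, 50 with limma-voom, 16 with scaling by library size alone, 130 where genes averaging under 50 CPM were left out, and 2 to 18 without 1 library. Scaling by library size alone moved the median over all genes to -0.12 on the log2 scale, against -0.03. Of the members, 0 were called by edgeR and 1, Aldh3a1, by DESeq2, by limma-voom and without the filter. Of the 4 lists, 0 genes were called by edgeR and 2, Rarb and Cbr2, by DESeq2. The replicate block gave 0 calls over all genes. Same-numbered old and young libraries gave correlations of 0.0191, -0.0990 and 0.0158 across genes between their deviations from the group means. Pairs with different numbers gave -0.108 to 0.104. The labels name no pairing, and whether same-numbered libraries were handled together was not tested. Of 279 alternative values of the 18 single genes, 271 kept their direction and side of the threshold. Without 1 library, Aldh3a2 ranged from -1.64 to 0.31 and Hacl1 from -0.026 to 0.48 on the log2 scale. The sum of Aldh1a1 and Aldh1a7 ranged from 1.84 to 2.76. The level of Aldh1a1 in old HSCs was 85.2 instead of 40.7 CPM per kb with the longest transcript. The cause of these shifts was not tested, apart from the length. The 50 CPM minimum left no Aldh3a1 or Aldh3a2 value. Aldh1a3, Aldh1a7 and Aldh3b1 entered the edgeR test where no filter was set, with adjusted p of 0.532, 0.978 and 0.524. Aldh1a7, at 2 counts in all, had too few to compare the groups.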

Other observations

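Several low aldehyde dehydrogenases were unevenly spread over the young libraries. Aldh1b1, a mitochondrial relative of Aldh2, had 25.03 CPM in young 3 and 11.5 CPM in young 4, and no count in young 1 or young 2. Aldh4a1, which acts in proline breakdown, had 17.7 and 9.05 CPM in young 3 and young 4 and no count in young 1 or young 2. Aldh16a1 had 11.2 and 14.97 CPM in young 3 and young 4, and 0.175 and 0.183 CPM in young 1 and young 2. In old HSCs it had 4.83 to 6.34 CPM. Young 1 and young 2 also had a count for fewer genes, 10576 and 10815, than young 3 and young 4, with 12042 and 12073. The part of this in the spread was not tested.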
